A study of Homo sapiens with 12 samples.

Results

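The 10 genes described here are tied to 2 hormone systems that circulate in plasma. NR3C1, TSC22D3, FKBP5, PER1, SGK1, KLF9 and ZBTB16 belong to the glucocorticoid response, and THRA, THRB and DIO2 to thyroid hormone signalling. They were picked by name from the 20375 genes listed for each library, and all 10 were found. DIO2 was chosen by its lower level in treated cells, so its difference from control is given as a description with no test. The other 9 were picked for their known roles, with earlier results of these data in view.

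Polyadenylated RNA was sequenced from PE/CA-PJ41, an oral squamous cell carcinoma line. Cells of the PRP group received 10% platelet-rich plasma for 48 h, cells of the plasma group received 10% human plasma for 48 h, and control cells were untreated, with 4 libraries in each group. The sources used here give no hormone level in the plasma, no number of donors, no serum content of the control medium and no culture time for control cells. The labels do not state that the replicates are separate cultures, so each p-value is read against a spread between libraries that could be purely technical.

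Cortisol enters the cell and binds the glucocorticoid receptor, encoded by NR3C1, which is held ready by HSP90 and its co-chaperones and then switches on a set of fast target genes. Thyroxine is carried in by transporters, turned into the active hormone triiodothyronine by the deiodinase DIO2, and read by the receptors THRA and THRB. Both systems use feedback: prolonged glucocorticoid lowers NR3C1 mRNA in many cell types, and thyroid hormone lowers Dio2 mRNA in the rodent pituitary.

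Libraries held 36943548 to 41976136 estimated reads in the PRP group, 36258955 to 41946780 in the plasma group and 40166503 to 41531218 in control. All 7 squamous epithelial markers were expressed, and their summed level was 12514 to 14056 TPM (a gene's share of all transcripts of its library, corrected for length) with PRP, 12389 to 13654 TPM with plasma and 8945 to 10283 TPM in control. Summed platelet markers were 0.305 to 0.424 TPM with PRP, 0.353 to 0.634 TPM with plasma and 0.438 to 0.693 TPM in control, with PF4 and GP9 at 0 in all 12 libraries. The 4 leukocyte markers summed to 0.929 to 1.62 TPM with PRP, 1.06 to 1.41 TPM with plasma and 1.30 to 1.91 TPM in control. The libraries numbered 1 had the lowest share of mitochondrially encoded reads in each group, at 0.191% with PRP, 0.216% with plasma and 0.287% in control. Those numbered 2 came next in each group, at 0.463% with PRP, 0.476% with plasma and 0.487% in control. In bulk RNA, fewer cells of a type and less RNA per cell cannot be told apart.

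Promoter windows of RefSeq (GRCh38.p14, 250 bases before to 50 after a start) were found for 9 of the 10 genes, 23 windows in all. They were searched on both strands for the letters that the 2 receptors and 2 other regulators of these genes are known to bind. The full palindrome of the glucocorticoid response element, AGAACA and TGTTCT with 3 bases of any kind between them, was in 0.00285% of all 35116 windows and in none of the 23. Its half-site AGAACA, which forms part of that palindrome, was in 14.8% of all windows and in 1 window each of FKBP5 and SGK1. The direct repeat read by thyroid hormone receptors, 2 copies of AGGTCA with 4 bases of any kind between them, was in 0.0199% of all windows and in none of the 23. Its half-site AGGTCA was in 13.8% of all windows and in 1 window, that of PER1. The cAMP response element TGACGTCA was in 1.85% of all windows and in 1 of the DIO2 windows. The E-box CACGTG, read by the clock proteins, was in 7.26% of all windows and in 1 window each of FKBP5 and PER1. The full palindrome and the direct repeat are so rare over all windows that none in 23 was to be expected. Sequence outside the windows was not searched.

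Runs from DIO2 and PER1 are shown because these are the 2 genes with a match upstream of a start whose levels, given below, were lower by the most in both treatments. The DIO2 run is at chr14:80212241-80212300 and the PER1 run at chr17:8152517-8152603, both on the minus strand. Capitals mark the cAMP response element in DIO2, which ends 88 bases before the start. In PER1 they mark first the E-box and then the thyroid half-site, written on the strand of the gene as TGACCT, which end 167 and 138 bases before it. A match in letters is a description and not a binding site.
DIO2: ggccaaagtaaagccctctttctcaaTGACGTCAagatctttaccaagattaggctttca
PER1: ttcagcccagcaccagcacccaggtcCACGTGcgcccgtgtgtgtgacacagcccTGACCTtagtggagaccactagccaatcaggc
Neither run overlaps an annotated exon of GENCODE 29. Both lie within introns of longer annotated transcripts, with DIO2-AS1 on the opposite strand at DIO2 and a further annotated gene on the same strand at PER1. The sources used here do not say if strand entered the counting, so reads shared with such partners cannot be told apart.

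Levels of the 10 genes ran from TSC22D3, at 87.0 to 114 TPM over the 12 libraries, down to ZBTB16, at 0.0259 to 0.0968 TPM. NR3C1 and SGK1 followed TSC22D3, at 29.6 to 45.3 TPM and 28.1 to 53.7 TPM. PER1, THRA, FKBP5, THRB and DIO2 lay between 2.09 and 24.6 TPM with overlapping ranges. KLF9 lay between 0.418 and 1.40 TPM. Each group was compared by limma on log2(TPM + 1) over the 12517 genes that reached 1 TPM in 4 or more libraries. That filter kept 8 of the 10 genes and left out KLF9 and ZBTB16. A gene was called at an adjusted p (Benjamini-Hochberg) under 0.05, and a difference on this scale understates the change of low genes.

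**Figure D1:**
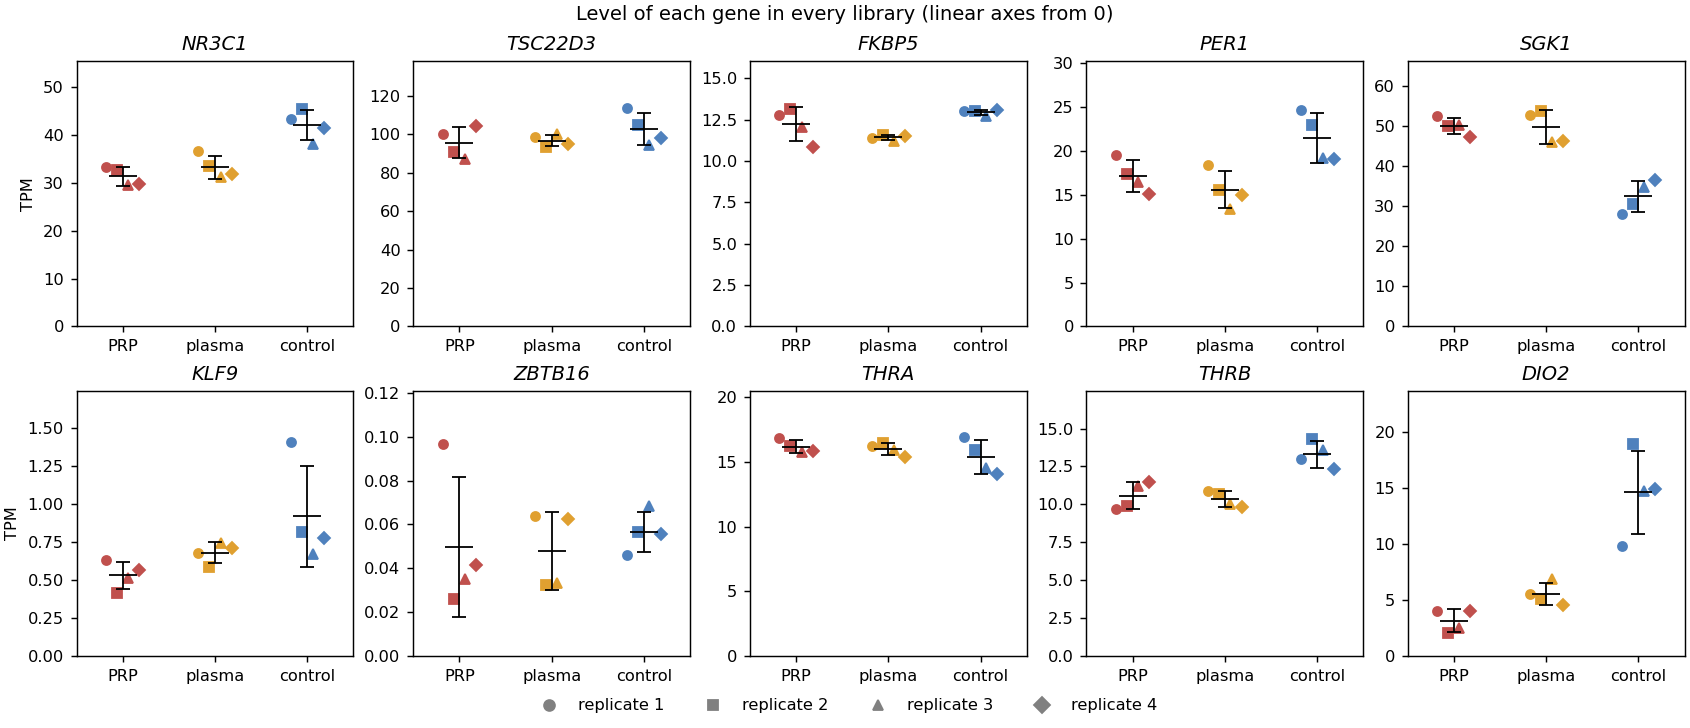
TPM of the 10 genes in each of the 12 libraries (symbols by replicate number), on linear axes that start at 0, for PRP, plasma and control. Bars give mean and SD over 4 libraries; SGK1 lies higher in all 8 treated libraries than in any control library, and NR3C1, THRB and DIO2 lie lower.

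With PRP, 1 of the 8 tested genes was called higher than control and 4 lower, where 53.1% of all tested genes were called (21.7% higher and 31.5% lower). With plasma, 1 was called higher and 5 lower, where 49.3% of all tested genes were called (20.3% higher and 29.0% lower). Without DIO2 the count was 4 of 7 with PRP and 5 of 7 with plasma, to be read against those shares of all genes. After median centring, 46.0% of the calls with PRP and 45.9% of those with plasma were lower, against 59.2% and 58.8% without it; the median log2 change of all tested genes was -0.06 with PRP and -0.05 with plasma. Libraries of the PRP and control groups did not overlap for 4 of the 8 genes (46.8% of all tested genes), and those of plasma and control for 6 of the 8 (43.9%); without DIO2, chosen on these values, it was 3 of 7 and 5 of 7. PRP and plasma are compared with the same 4 control libraries, so the 2 sets of values are not independent.

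NR3C1, the glucocorticoid receptor, fell with both treatments. Its level was 33.2, 32.6, 29.6 and 29.8 TPM in the PRP libraries, 36.5, 33.4, 31.2 and 31.8 TPM in the plasma libraries, and 43.2, 45.3, 38.0 and 41.4 TPM in the control libraries. Every treated library was below every control library. Against control, the log2 change was -0.41 with PRP (95% interval -0.55 to -0.27, limma adjusted p = 0.000119) and -0.33 with plasma (-0.47 to -0.19, adjusted p = 0.000848). In TPM this is a mean of 0.745 times control with PRP and 0.791 times control with plasma.

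SGK1, a kinase induced by glucocorticoid and mineralocorticoid but also by serum, was the 1 gene of the 10 called higher. It had 52.4, 49.9, 50.2 and 47.2 TPM with PRP, 52.7, 53.7, 45.9 and 46.1 TPM with plasma, and 28.1, 30.5, 34.7 and 36.5 TPM in control. All 8 treated libraries were above all 4 controls, at a mean of 1.54 times control with PRP and 1.53 times control with plasma. The log2 change was 0.61 with PRP (0.45 to 0.78, limma adjusted p = 1.84e-05) and 0.60 with plasma (0.43 to 0.77, adjusted p = 2.67e-05).

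The other glucocorticoid-induced genes above the filter, TSC22D3, FKBP5 and PER1, were not called higher with either treatment. TSC22D3, the anti-inflammatory leucine zipper protein GILZ, had 100.02, 90.8, 87.0 and 105 TPM with PRP, 98.7, 93.6, 100.03 and 95.02 TPM with plasma, and 114, 105, 94.4 and 98.4 TPM in control. Its libraries overlapped in both comparisons. The log2 change was -0.11 with PRP (-0.24 to 0.03, limma adjusted p = 0.178) and -0.08 with plasma (-0.22 to 0.05, adjusted p = 0.294).

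FKBP5 encodes the co-chaperone that dampens the receptor and is among the most sensitive glucocorticoid targets. It had 12.8, 13.2, 12.1 and 10.8 TPM with PRP, 11.4, 11.6, 11.2 and 11.5 TPM with plasma, and 13.01, 13.01, 12.7 and 13.06 TPM in control. The plasma libraries all lay below the controls, and the PRP libraries spread across both. The log2 change was -0.16 with plasma (-0.29 to -0.03, limma adjusted p = 0.0365) and -0.08 with PRP (-0.21 to 0.05, adjusted p = 0.282). The call with plasma was lost in 11 of 20 alternatives, among them median centring (adjusted p = 0.112, where 48.8% of genes were called) and estimated reads (adjusted p = 0.0557, where 56.7% were called), and without any 1 of the 4 plasma or 4 control libraries (adjusted p between 0.0509 and 0.0785).

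PER1, a clock repressor that glucocorticoids induce within hours, fell with both treatments. It had 19.5, 17.4, 16.5 and 15.1 TPM with PRP, 18.4, 15.6, 13.4 and 15.0 TPM with plasma, and 24.6, 23.0, 19.2 and 19.0 TPM in control. Only the plasma libraries lay wholly below control, and PRP replicate 1 was above the 2 lowest controls. The log2 change was -0.31 with PRP (-0.53 to -0.08, limma adjusted p = 0.0243) and -0.44 with plasma (-0.66 to -0.21, adjusted p = 0.00345). The call with PRP was lost without control replicate 1 or 2 (adjusted p = 0.0769 and 0.0675) and without PRP replicate 3 or 4 (0.0554 and 0.0758). Replicate 1 was the highest library for PER1 in every group; without the 3 libraries numbered 1, the change was -0.30 with PRP (adjusted p = 0.0160) and -0.45 with plasma (adjusted p = 0.00198).

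KLF9, a transcription factor induced by both glucocorticoid and thyroid hormone, stayed below the filter. It had 0.630, 0.418, 0.513 and 0.567 TPM with PRP, 0.681, 0.584, 0.746 and 0.709 TPM with plasma, and 1.40, 0.819, 0.673 and 0.777 TPM in control, from 56 to 181 reads per library. The PRP libraries lay below all controls and the plasma libraries overlapped with them. Fitted with no filter over 17662 genes, the log2 change was -0.31 with PRP (limma adjusted p = 0.0240), where 38.8% of genes were called, and -0.18 with plasma (adjusted p = 0.185), where 35.4% were called. Without control replicate 1, which is high for KLF9, these became -0.20 (adjusted p = 0.0172) and -0.06 (adjusted p = 0.426); that setting was chosen after seeing the data.

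ZBTB16, a zinc finger factor strongly induced by glucocorticoid and progesterone in responsive cells, was close to the detection floor. It had 3 to 9.41 reads with PRP, 2.995 to 7.25 with plasma and 5.04 to 7.88 in control. A difference between the groups was not detectable at this depth.

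THRA, the more widely expressed thyroid hormone receptor, had 16.8, 16.2, 15.7 and 15.8 TPM with PRP, 16.2, 16.4, 15.9 and 15.4 TPM with plasma, and 16.9, 15.9, 14.5 and 14.1 TPM in control. The groups overlapped. The log2 change was 0.07 with PRP (-0.06 to 0.20, limma adjusted p = 0.332) and 0.06 with plasma (-0.07 to 0.19, adjusted p = 0.437). With PRP the same change was called after median centring (0.14, adjusted p = 0.0339, where 52.3% of genes were called) and on estimated reads (0.15, adjusted p = 0.0231, where 60.3% were called). THRA shares 1075 bases at chr17:40092793-40093867 with NR1D1, a clock repressor on the other strand, whose mean was 2.37 ± 0.104 TPM with PRP, 2.21 ± 0.119 TPM with plasma and 2.02 ± 0.434 TPM in control (SD, n = 4 each).

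THRB, the receptor that carries much of the feedback by thyroid hormone, fell with both treatments. It had 9.71, 9.91, 11.2 and 11.5 TPM with PRP, 10.9, 10.7, 10.0 and 9.81 TPM with plasma, and 12.97, 14.3, 13.6 and 12.3 TPM in control. All treated libraries were below all controls. The log2 change was -0.31 with PRP (-0.46 to -0.16, limma adjusted p = 0.00225) and -0.33 with plasma (-0.48 to -0.18, adjusted p = 0.00146). The effective length of THRB, the mean length of its detected transcripts as estimated from the reads, also varied: 2961 to 3893 bases with PRP, 3498 to 3835 with plasma and 3805 to 4336 in control. On estimated reads, which do not divide by that length, the log2 change was -0.51 with PRP (adjusted p = 1.31e-06) and -0.44 with plasma (adjusted p = 6.20e-06).

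DIO2 had the widest range of the tested members, with a ratio of highest to lowest TPM of 9.02. Its level was 4.07, 2.09, 2.498 and 4.04 TPM with PRP, 5.56, 5.09, 6.86 and 4.595 TPM with plasma, and 9.83, 18.9, 14.8 and 15.0 TPM in control. These values chose the gene. The 3 groups did not overlap, with PRP lowest, and the means were 0.217 times control with PRP and 0.378 times control with plasma. Control replicate 1 was the lowest control, at 754 reads against 1068 to 1115 in the other 3 control libraries.

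In the treated groups the reads behind DIO2 were less spread than its TPM. They came to 206, 230, 238 and 248 with PRP and to 314, 261, 300 and 326 with plasma. Scaled to library size this is, in RPM, a scale that does not divide by transcript length, 5.66 ± 0.182 with PRP, 7.42 ± 0.301 with plasma and 24.4 ± 4.07 in control (SD, n = 4 each), or 0.232 and 0.304 times control. The effective length of DIO2 ran from 2141 to 4045 bases in the PRP libraries and from 1548 to 2500 in the plasma libraries, against 2241 to 2932 in control. The 2 PRP libraries with the lowest TPM, replicates 2 and 3, had the longest effective lengths, at 4045 and 3386 bases.

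**Figure D2:**
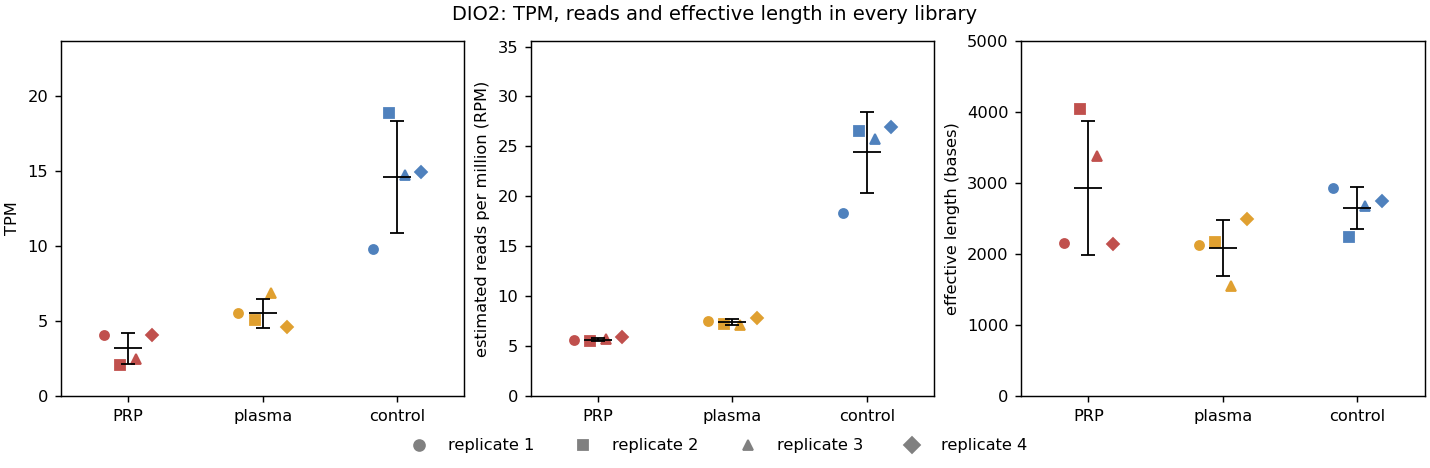
DIO2 in each of the 12 libraries as TPM, as estimated reads scaled to library size (RPM) and as effective length in bases, each axis from 0, with mean and SD over 4 libraries. RPM values lie close together in both treated groups (5.66 ± 0.182 with PRP and 7.42 ± 0.301 with plasma), while TPM and effective length spread more.

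DIO2 was also compared between PRP and plasma, which did not serve to choose the gene but uses the same treated libraries. The log2 difference in TPM was -0.67 ± 0.19 (SE; -1.08 to -0.26), with an unadjusted p of 0.00366 and a limma adjusted p of 0.344, short of a call, with all 4 PRP libraries below every plasma library. On estimated reads it was -0.38 (adjusted p = 0.468). No member was called between PRP and plasma, where 8 genes (0.0639%) were called of all tested and libraries did not overlap for 5.22%. At an unadjusted p under 0.05, 1 of the 8 members passed, DIO2, and 999 of all tested genes; on estimated reads 0 members and 12 genes were called. For the other 7 the 95% intervals of the difference between PRP and plasma all held 0. They were -0.22 to 0.06 for NR3C1, -0.16 to 0.11 for TSC22D3, -0.05 to 0.21 for FKBP5, -0.09 to 0.36 for PER1, -0.15 to 0.18 for SGK1, -0.12 to 0.14 for THRA and -0.12 to 0.18 for THRB.

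**Figure D3:**
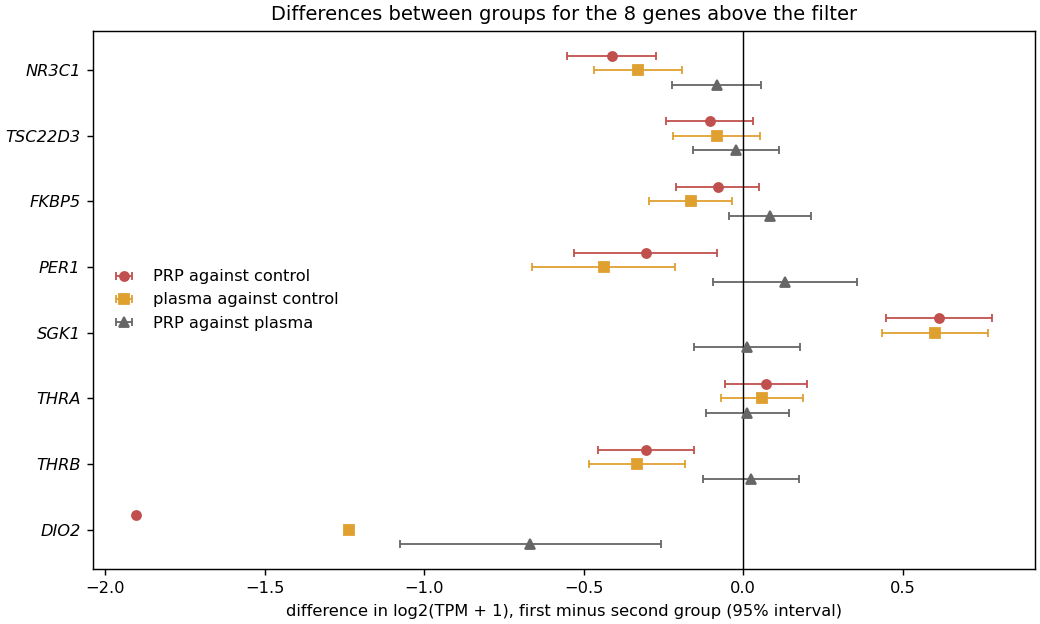
Differences in log2(TPM + 1) for the 8 tested genes, with 95% intervals from limma over 12 libraries; points right of 0 are higher in the first-named group. DIO2 against control is drawn without an interval because those values chose it. SGK1 is at 0.61 and 0.60 against control, and the intervals of PRP against plasma include 0 for the 7 genes other than DIO2.

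The wider pathways were followed through 9 lists of known genes, whose counts are to be read against the shares of all tested genes called higher and lower, 21.7% and 31.5% with PRP and 20.3% and 29.0% with plasma. Of 25 other glucocorticoid-induced genes, 20 were tested: 7 rose and 6 fell with PRP, and 8 rose and 7 fell with plasma, where 5 rose without control replicate 2 or plasma replicate 2. Their median log2 change was 0.02 with PRP and 0.00 with plasma, beside -0.06 and -0.05 over all tested genes. TFCP2L1, a tested gene of this list, averaged 1.32 ± 0.251 TPM with PRP, 1.11 ± 0.0872 TPM with plasma and 0.752 ± 0.103 TPM in control. It reached 1 TPM in treated libraries only and so passed the filter only through groups where it was high. Any place of TFCP2L1 among the genes that rose is a description. NFKBIA, an inhibitor of NF-kB that NF-kB itself also induces, averaged 197 ± 4.15 TPM with PRP, 206 ± 18.6 TPM with plasma and 121 ± 5.70 TPM in control. The metallothionein MT1X, which zinc induces as well, averaged 29.8 ± 4.81 TPM with PRP, 27.2 ± 1.998 TPM with plasma and 12.9 ± 1.67 TPM in control. CDKN1C, a cell cycle inhibitor, went the other way, at 4.70 ± 0.388 TPM with PRP, 5.49 ± 0.464 TPM with plasma and 10.3 ± 0.596 TPM in control. MAOA, which breaks down monoamines, rose to 17.2 ± 1.10 TPM with PRP and 17.7 ± 0.825 TPM with plasma, against 11.3 ± 0.625 TPM in control (limma adjusted p of these 4 genes between 1.30e-07 and 3.83e-06).

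Among 15 chaperones and coregulators of the glucocorticoid receptor, 3 rose and 2 fell with PRP, and 2 rose and 1 fell with plasma. The number lower with plasma was 3 without control replicate 1 or plasma replicate 1, and 2 without control replicate 2, 3 or 4 or PRP replicate 1. FKBP4, the co-chaperone that helps the receptor to the nucleus where FKBP5 holds it back, averaged 57.3 ± 3.45 TPM with PRP, 55.2 ± 3.09 TPM with plasma and 37.0 ± 1.66 TPM in control (limma adjusted p = 6.02e-07 and 1.76e-06). HSP90AB1 rose as well, to 1220 ± 82.8 TPM with PRP and 1189 ± 87.6 TPM with plasma, against 1008 ± 50.6 TPM in control. PPID, a further HSP90 co-chaperone, fell to 36.3 ± 1.23 TPM with PRP and 37.7 ± 4.77 TPM with plasma, against 50.8 ± 8.91 TPM in control. NCOA1, a receptor coactivator, fell with PRP (limma adjusted p = 0.00816) and had an adjusted p of 0.0552 with plasma.

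Of 4 tested genes for cortisol activation and other steroid receptors, 2 rose and 2 fell with PRP, and 1 rose and 2 fell with plasma. The number higher with PRP was 1 without control replicate 1, 2 or 3, plasma replicate 2 or 3 or PRP replicate 3, and 0 without PRP replicate 1 or 2. The number higher with plasma was 0 without control replicate 1 or 3 or plasma replicate 1 or 3, and the number lower was 1 with each treatment without any 1 control library. The oestrogen receptor ESR1, 1 of those lower, then failed the filter and was not tested. Its calls were kept in all 14 alternatives that tested it. ESR1 reached 1 TPM in control libraries only, and ESR2, higher with PRP, in treated libraries only, so their calls are a description. HSD11B1, which makes cortisol from cortisone, averaged 0.134 TPM with PRP, 0.109 TPM with plasma and was listed at 0 in every control library. These values rest on 0 to 4 reads per library with PRP and 0 to 6 with plasma, close to the detection floor, so no difference is read from them. H6PD, which supplies that enzyme with NADPH, averaged 17.7 ± 1.30 TPM with PRP, 19.2 ± 1.31 TPM with plasma and 24.9 ± 1.83 TPM in control (limma adjusted p = 6.01e-05 and 0.000618). HSD11B2, which inactivates cortisol, averaged 1.995 ± 0.732 TPM with PRP, 2.05 ± 0.541 TPM with plasma and 1.16 ± 0.353 TPM in control (adjusted p = 0.0438 and 0.0324). The call of HSD11B2 was lost in 8 of 19 alternatives with PRP (adjusted p up to 0.166) and in 6 of 19 with plasma (up to 0.205).

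Of 7 tested genes of the mineralocorticoid and SGK1 pathway, 2 rose with each treatment, 2 fell with PRP and 1 fell with plasma. The number lower with PRP was 1 without control replicate 1 or 2, plasma replicate 2 or 4 or PRP replicate 2, and also after median centring; the call of RICTOR, a subunit of the kinase complex that phosphorylates SGK1, was lost in 11 of 20 alternatives (limma adjusted p up to 0.139). NDRG1, the standard substrate of SGK1 and also a hypoxia-induced gene, averaged 161 ± 10.8 TPM with PRP, 140 ± 12.1 TPM with plasma and 80.1 ± 28.5 TPM in control (limma adjusted p = 8.33e-05 and 0.000555). SCNN1G, a subunit of the epithelial sodium channel that aldosterone controls, averaged 1.003 ± 0.140 TPM with PRP, 1.19 ± 0.158 TPM with plasma and 0.371 ± 0.0790 TPM in control. SCNN1G reached 1 TPM in treated libraries only and so passed the filter only through groups where it was high. Its place among the genes that rose is a description. PDPK1, the kinase that activates SGK1, fell, with 22.0 ± 2.03 TPM with PRP, 22.8 ± 1.56 TPM with plasma and 28.1 ± 0.833 TPM in control. The mineralocorticoid receptor NR3C2 averaged 0.0439 TPM with PRP, 0.0438 TPM with plasma and 0.0337 TPM in control.

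On the thyroid side, 11 genes for hormone transport, deiodination and receptor partners were tested: 6 fell with PRP and 5 with plasma, and none was called higher with either (2 were higher with PRP after median centring, 2 with PRP and 1 with plasma on estimated reads, and 1 with PRP without plasma replicate 2). Their median log2 change was -0.24 with PRP and -0.18 with plasma. The 3 smallest adjusted p were those of transporters. SLC7A5 averaged 575 ± 40.6 TPM with PRP, 596 ± 43.6 TPM with plasma and 857 ± 26.3 TPM in control. Its partner chain SLC3A2 averaged 368 ± 23.7 TPM with PRP, 365 ± 12.5 TPM with plasma and 525 ± 9.49 TPM in control. SLC7A8 averaged 60.1 ± 4.08 TPM with PRP, 61.6 ± 2.82 TPM with plasma and 91.7 ± 8.75 TPM in control (limma adjusted p of the 3 between 4.20e-07 and 1.08e-05). These carriers also move large neutral amino acids. RXRA, the partner of THRA and THRB on DNA, fell to 52.7 ± 1.83 TPM with PRP and 54.9 ± 0.401 TPM with plasma, against 62.5 ± 2.06 TPM in control.

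Of 6 tested thyroid hormone-induced genes, 1 rose and 3 fell with each treatment (5 fell with no filter on low values). BCL3 rose to 38.7 ± 1.93 TPM with PRP and 38.1 ± 4.59 TPM with plasma, against 19.7 ± 1.73 TPM in control (limma adjusted p = 4.04e-07 and 6.79e-07); it is also induced by NF-kB. Malic enzyme, ME1, a textbook thyroid hormone target in liver, averaged 36.3 ± 1.81 TPM with PRP, 36.5 ± 1.75 TPM with plasma and 53.5 ± 1.82 TPM in control (adjusted p = 6.50e-07 and 9.03e-07). HR, a corepressor induced by thyroid hormone in rodent brain, averaged 13.6 ± 0.806 TPM with PRP, 12.8 ± 0.316 TPM with plasma and 18.8 ± 1.92 TPM in control. MBP was called lower on TPM with both (adjusted p = 0.0166 and 0.00537) but not on estimated reads (adjusted p = 0.846 and 0.481), and its call with PRP was lost in 5 of 20 alternatives in all.

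DIO2 is a selenoprotein, so genes for selenocysteine insertion and DIO2 turnover were counted: of 13 tested, 6 rose and 4 fell with PRP, and 3 rose and 2 fell with plasma. On estimated reads the counts were 6 and 1 with PRP and 6 and 2 with plasma, and after median centring 6 and 1 with PRP and 5 and 2 with plasma. The number lower with PRP was 2 without control replicate 2 or PRP replicate 2 or 3. EEFSEC, the elongation factor for selenocysteine, averaged 13.3 ± 0.257 TPM with PRP, 11.3 ± 1.54 TPM with plasma and 4.92 ± 0.564 TPM in control (limma adjusted p = 9.24e-08 and 6.76e-07). The selenoprotein GPX1, which removes peroxides, averaged 212 ± 10.4 TPM with PRP, 212 ± 4.70 TPM with plasma and 101 ± 7.16 TPM in control. SECISBP2, which binds the selenocysteine insertion element, fell to 30.4 ± 2.46 TPM with PRP and 31.1 ± 2.37 TPM with plasma, against 39.9 ± 0.959 TPM in control. The other deiodinases, DIO1 and DIO3, averaged at most 0.155 TPM in every group.

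PER1 belongs to the circadian clock, of which 14 other genes were tested: 2 rose and 1 fell with PRP, and 3 rose and 3 fell with plasma; on estimated reads 4 rose and 3 fell with PRP. The number lower with PRP was 3 without control replicate 3, and 2 without control replicate 4, plasma replicate 2 or 4 or PRP replicate 2. CRY1, its partner in repression, fell to 11.6 ± 1.80 TPM with PRP and 11.8 ± 1.08 TPM with plasma, against 18.7 ± 1.41 TPM in control (limma adjusted p = 6.76e-05 and 0.000134). DBP, a clock output factor, rose to 7.46 ± 1.22 TPM with PRP and 5.31 ± 1.02 TPM with plasma, against 2.002 ± 0.790 TPM in control (adjusted p = 5.89e-06 and 0.000137). PER2 averaged 7.99 ± 0.858 TPM with PRP, 8.09 ± 0.686 TPM with plasma and 7.35 ± 0.684 TPM in control (adjusted p = 0.319 and 0.250). No gene of the lists was called between PRP and plasma.

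**Figure D4:**
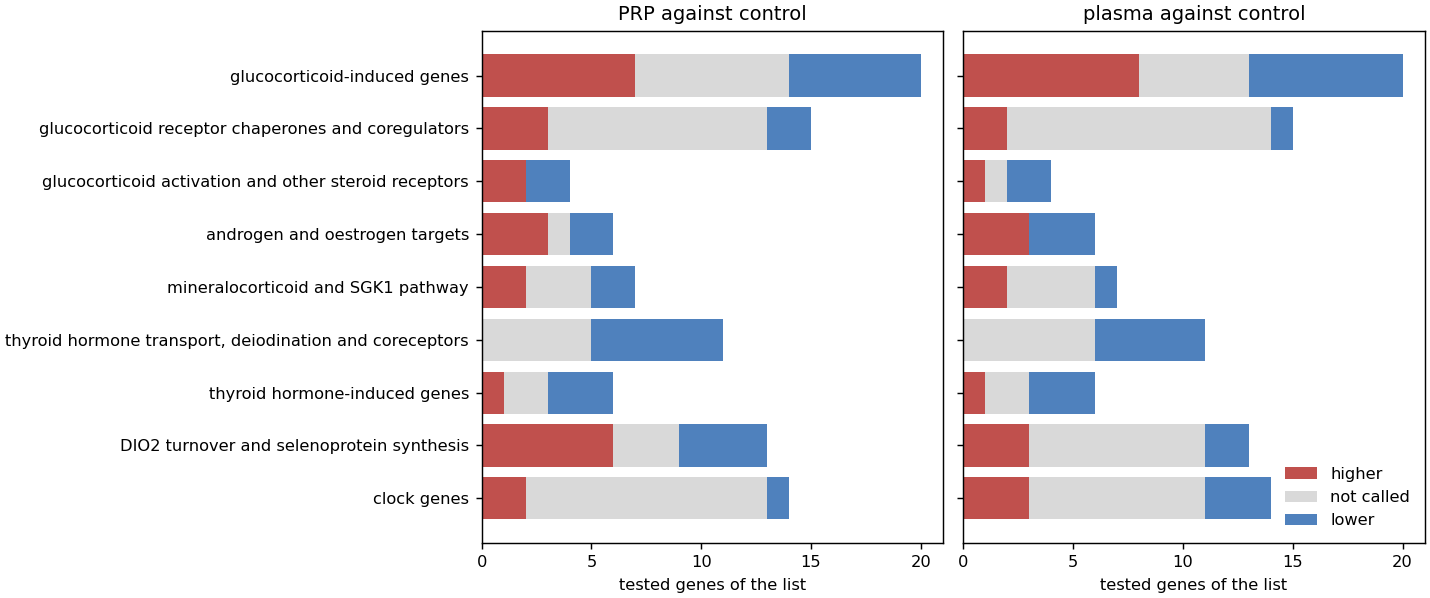
Number of tested genes of each list called higher, lower or not called, for PRP against control (left) and plasma against control (right). The thyroid transport list has none called higher (2 with PRP after median centring), and the glucocorticoid-induced list splits 7 higher and 6 lower with PRP and 8 higher and 7 lower with plasma. The tested genes include some, such as TFCP2L1 and SCNN1G, that passed the filter only through groups where they were high.

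Over the 12 libraries and 10167 candidate genes with a mean of at least 5 TPM, the genes closest to NR3C1 in pattern were STARD13 (Pearson r = 0.994), SEZ6L2 (0.988), LAMP1 (0.985), KDM2A (0.984) and GAA (0.984). Those closest to DIO2 were TCEAL3 (0.961), PADI1 (0.957), ZMAT5 (0.955), SPIDR (0.953) and USPL1 (0.953). All 12 points of each correlation share the same libraries, and each of these 10 genes averaged lower with both treatments than in control. ZMAT5, for one, averaged 17.01 ± 1.67 TPM with PRP, 20.4 ± 1.81 TPM with plasma and 30.4 ± 2.34 TPM in control.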

How the data were processed

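The submitters' processing notes name Salmon and hg38, with no version; no transcript set is given in the sources used here. Each deposited file lists, per the file headers, length, effective length, TPM and estimated reads per gene, with decimal commas; the authors' read column holds estimates that need not be whole, and neither edgeR nor DESeq2 was run. TPM recomputed from deposited reads and effective lengths matched for 20375 of 20375 genes, within 1% plus 0.01 TPM. The deposited TPM values were tested with limma-trend on log2(TPM + 1), two-sided (R 4.3.3, limma 3.58.1), 1 term per group over 12 libraries, with Benjamini-Hochberg adjustment over 12517 genes. The functions were tested on simulated data. Estimated reads were tested with voom as 1 of 20 alternatives, together with other pseudocounts, filters and centring, a replicate block, and libraries left out.

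The members and lists were chosen with earlier results of these data known. Named were all members, NR1D1, up to 4 genes per list with the smallest adjusted p, and the 5 genes most like NR3C1 and DIO2. HSD11B1, NR3C2, PGR, DIO1, DIO3, PER2 and TFCP2L1 were named after their values were seen. Depth was 36258955 to 41976136 reads, and a floor of 3 reads covers counting error only.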

Additional observations from a re-analysis of the deposited data

Results flagged for a closer look

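Values of each gene in each group were searched for 1 library that stood far from the other 3; 60 groups were searched, and chance alone gives about 3 such cases. There were 2. FKBP5 in control replicate 3 was 12.7 TPM, with the other 3 control libraries between 13.01 and 13.06 TPM, a group so tight that a small gap stands out. The effective length of THRA in PRP replicate 3 was 3179 bases, with the other 3 PRP libraries between 2994 and 3000 bases; its TPM, 15.7, was within the range of the group.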

How the results depend on the processing

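The number of genes called against control ran from 5860 to 7543 with PRP and from 5446 to 7095 with plasma over the 20 alternatives, and the calls of NR3C1, SGK1 and THRB were kept in all 20 with both. The count between PRP and plasma, 8, became 4 with no filter, 16 with only the 2 groups compared and 2 without the 3 libraries numbered 1, ran from 4 to 14 when 1 library was left out, and was 1 with no filter and without control replicate 1; the cause was not tested. Small differences between PRP and plasma turned in sign: when 1 library was left out, TSC22D3 ran from -0.0656 to 0.0217, SGK1 from -0.0237 to 0.0509, THRA from -0.00657 to 0.0252 and THRB from -0.0111 to 0.0622. THRA was -0.000107 without the 3 libraries numbered 1, and THRB was -0.0685 on estimated reads. DIO2 with plasma was -1.67 on estimated reads and -1.24 on TPM. Deviations of same-numbered libraries correlated from -0.067 to 0.304, with 5 of 12 pairs above 0.1, among them all 3 pairs numbered 1, and 14 of 24 highest with their own number. The share of mitochondrially encoded reads was also lowest in number 1 and next lowest in number 2 of every group. These values are a hint of shared variation. The labels give no shared origin and not every pair was above 0.1, so the numbers were not taken to pair the samples. With the replicate block 7105 genes were called with PRP, 6600 with plasma and 9 between them, and no member's call changed. The block also moved the numbers lower with PRP and plasma to 4 and 4 for receptor chaperones, the number lower with plasma to 2 for the mineralocorticoid list, the number higher with PRP to 1 for steroid receptors and the number lower with PRP to 2 for clock genes. Depth limits ZBTB16.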

Other observations

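Targets of the sex steroids, which plasma also carries, moved in both directions. Of 6 tested androgen and oestrogen targets, 3 rose and 2 fell with PRP, and 3 rose and 3 fell with plasma. Without any 1 control library, 0 fell with PRP and 1 with plasma. PDZK1 and GREB1 then failed the filter and were not tested, and they kept their calls in all 14 alternatives that tested them. PDZK1, a scaffold protein induced by oestrogen in breast cells, averaged 0.328 ± 0.112 TPM with PRP, 0.585 ± 0.149 TPM with plasma and 2.02 ± 0.712 TPM in control (limma adjusted p = 1.85e-05 and 0.000186). GREB1, an oestrogen receptor coactivator, averaged 0.383 ± 0.147 TPM with PRP, 0.606 ± 0.260 TPM with plasma and 1.51 ± 0.263 TPM in control. TMPRSS2, an androgen-induced protease, averaged 1.28 ± 0.157 TPM with PRP, 1.17 ± 0.378 TPM with plasma and 0.513 ± 0.0746 TPM in control. The carbonic anhydrase CA12 averaged 8.89 ± 0.780 TPM with PRP, 7.70 ± 1.33 TPM with plasma and 5.56 ± 0.906 TPM in control. Without the 3 libraries numbered 1, the call of CA12 with plasma was lost (adjusted p = 0.113). IGFBP4 averaged 157 ± 7.27 TPM with PRP, 163 ± 5.36 TPM with plasma and 147 ± 2.88 TPM in control; its call with PRP (limma adjusted p = 0.0470) was lost in 11 of 20 alternatives. Of the receptors, ESR1 fell to 0.798 ± 0.116 TPM with PRP and 0.867 ± 0.0486 TPM with plasma, against 1.30 ± 0.154 TPM in control (adjusted p = 0.00532 and 0.0163). ESR2 rose to 1.01 ± 0.117 TPM with PRP, against 0.632 ± 0.0805 TPM in control (limma adjusted p = 0.0226), and averaged 0.877 ± 0.173 TPM with plasma (adjusted p = 0.119). PGR was listed at 0 in every library. PDZK1, GREB1 and ESR1 reached 1 TPM in control libraries only, and TMPRSS2 and ESR2 in treated libraries only. Each passed the filter only through groups where it was high, so its call and adjusted p are given as a description.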
